A study of Homo sapiens with 24 samples.

Results

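The genes described here encode the collagens, the laminin chains and the integrin subunits. They were taken as the entries of the count table whose symbol was a collagen alpha chain (COL followed by type and chain number), a laminin alpha, beta or gamma chain (LAMA, LAMB, LAMC) or an integrin alpha or beta subunit (ITGA, ITGB). The rule found 81 of the 26645 gene entries, made up of 44 collagens, 12 laminins and 25 integrins. Of these, 56 passed the filter on low counts and were tested among 14741 genes, namely 25 collagens, 11 laminins and 20 integrins.

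The libraries came from MDA-MB-468 (MB468), a human triple-negative breast cancer line whose growth depends on methionine (Met), and from MDA-MB-468res-R8 (MB468res-R8), a derivative that grows without it on homocysteine (Hcy), from which cells make methionine. MB468res-R8 is 1 clone, so what sets it apart from MB468 may belong to that clone. Each line was grown in medium with 100 µM L-methionine (Met+) and collected at 0 h, or was switched to medium with 370 µM DL-homocysteine and no methionine (Met-Hcy+) and collected 0.5, 2 and 12 h later, which gave 8 groups of 3 libraries. Both lines were kept in the same dialyzed serum with vitamin B12, glutamine and cysteine. No library came from Met+ medium at 0.5, 2 or 12 h, so Met-Hcy+ medium, the change of medium and time in culture cannot be told apart. The libraries held 11713037 to 36402932 counts in genes (median 20452800).

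Collagens and laminins are trimers that are secreted into the extracellular matrix. Fibrillar collagens such as types I and V form cables, collagen IV forms the sheet of the basement membrane together with laminins, and laminins bind the cell through integrins. An integrin is a pair of an alpha and a beta subunit in the plasma membrane, and in epithelial cells α6β4 holds a laminin with the chains LAMA3 and LAMB3 in hemidesmosomes, α3β1 binds this laminin and the one made of LAMA5, LAMB1 and LAMC1 (laminin α5β1γ1), and α2β1 binds collagen.

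All 8 epithelial markers examined were present, with a summed level of 3255 to 7160 CPM, which are counts relative to the library total. The 7 fibroblast markers summed to 0.551 to 1.84 CPM in each library, and 3 of the 7 never exceeded 3 counts in a library. The 25 genes that were not tested were COL1A2, COL2A1, COL3A1, COL6A1, COL6A2, COL6A5, COL6A6, COL8A2, COL9A1, COL10A1, COL11A1, COL11A2, COL15A1, COL17A1, COL19A1, COL20A1, COL21A1, COL22A1, COL25A1, LAMB4, ITGA4, ITGA8, ITGA11, ITGAL and ITGAX. COL3A1 and COL1A2 never exceeded 2 counts and 1 count in a library, and COL22A1 and ITGA8 had 0 counts in all 24 libraries. COL17A1, the transmembrane collagen of hemidesmosomes, reached at most 12 counts. COL1A1 was present in all libraries, while COL1A2, its usual partner in type I collagen, was next to absent. Of the 4 endothelial and 4 leukocyte markers, the sums of 10.2 to 403 CPM and 21.3 to 159 CPM came mostly from KDR and CD14, and PTPRC, which defines leukocytes, never exceeded 7 counts. Both sums differed between the lines, at 0 h with 258 to 292 CPM in MB468 and 46.0 to 50.6 in MB468res-R8 for the endothelial list and 145 to 159 against 45.9 to 51.6 for the leukocyte list, and that of the epithelial list was 5076 to 5318 against 5998 to 6316. Their part in the results was not tested. In such bulk libraries, fewer cells of a kind and less RNA per cell cannot be told apart.

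The collagen IV genes lie in 3 pairs that are transcribed away from each other, with starts within 2000 bases. By the starts of the RefSeq promoter table (GRCh38), COL4A1 on the minus strand of chromosome 13 starts at 110307157 and COL4A2 on the plus strand at 110307284, which leaves 126 bases between them. GENCODE v44 also holds COL4A2 transcripts that start further upstream, the first at 110305812, so that by its gene bounds the 2 genes overlap. In the RefSeq table the starts of COL4A4 and COL4A3 on chromosome 2 lie 419 bases apart, and COL4A6 on the X chromosome has starts 380 and 1416 bases from that of COL4A5. The first 100 bases from COL4A1 towards COL4A2, up to the first GENCODE exon of COL4A2 in that stretch, are shown because these genes differed in the same direction between the lines and rose together at 12 h. The 250 bases before the starts of COL5A1 and LAMA2 are shown because COL5A1 differed most between the lines at 0 h and LAMA2 had the largest difference in 12 h response among members with at least 10 counts in every library. RefSeq promoters were found for 58 of the 81 genes. Capitals mark CCAAT and GGGCGG, searched on both strands (CCGCCC is GGGCGG on the other strand), and the sequences run along the plus strand, 5′ to 3′, of GRCh38.
COL4A1 to COL4A2, chr13:110307158-110307257: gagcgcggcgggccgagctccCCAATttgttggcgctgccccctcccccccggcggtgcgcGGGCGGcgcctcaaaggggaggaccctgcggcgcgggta
COL5A1, chr9:134641553-134641802: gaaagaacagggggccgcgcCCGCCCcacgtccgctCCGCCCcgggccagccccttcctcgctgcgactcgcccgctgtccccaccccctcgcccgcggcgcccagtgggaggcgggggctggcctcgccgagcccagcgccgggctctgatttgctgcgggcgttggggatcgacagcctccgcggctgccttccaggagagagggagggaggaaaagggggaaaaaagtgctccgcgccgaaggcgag
LAMA2, chr6:128882888-128883137: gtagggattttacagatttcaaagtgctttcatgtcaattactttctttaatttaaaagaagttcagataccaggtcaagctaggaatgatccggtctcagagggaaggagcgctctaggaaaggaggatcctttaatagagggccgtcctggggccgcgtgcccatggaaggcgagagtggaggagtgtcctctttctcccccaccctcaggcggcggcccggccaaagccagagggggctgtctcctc
The collagen IV stretch was 78.0% G and C with CCAAT once and GGGCGG once. The first was present in 18.9% and the second in 29.9% of 35116 RefSeq promoters cut to the same 100 bases. The COL5A1 stretch was 74.0% G and C with 2 GGGCGG on the minus strand, a motif present in 42.6% of promoters over 250 bases. The LAMA2 stretch was 53.2% G and C, against a median of 58.0% over all promoters, and held neither motif; CCAAT was present in 32.0% of promoters of that length. TATAAA (10.7% of promoters over 250 bases and 3.43% over 100) and TGANTCA (6.57% and 2.98%) were also searched and were in none of the 3 stretches. None of the 4 motifs contains another. A match describes letters only.

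The first comparison asks how the lines differed before the change of medium. In Met+ medium the laminins and the integrins of epithelial cells were mostly higher in MB468res-R8, and the collagens were split, with COL5A1, COL8A1, COL4A1 and COL4A2 lower and COL4A6, COL5A2 and COL13A1 higher. Of the 56 tested members, 23 were higher and 14 lower in MB468res-R8 (edgeR's quasi-likelihood test, Benjamini-Hochberg adjusted p under 0.05), where 26.4% of all tested genes were higher and 27.1% lower. By family, 6 collagens were higher and 9 lower of 25, 7 laminins higher and 1 lower of 11, and 10 integrins higher and 4 lower of 20. The median log2 fold change of the members was 0.15 against -0.00061 over all genes. These calls take most genes as unchanged between libraries. With the ERCC spike-in totals as library sizes the median of all genes moved to -0.31 and the split of members to 12 higher and 21 lower, so directions here are relative to the bulk of genes.

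**Figure D1:**
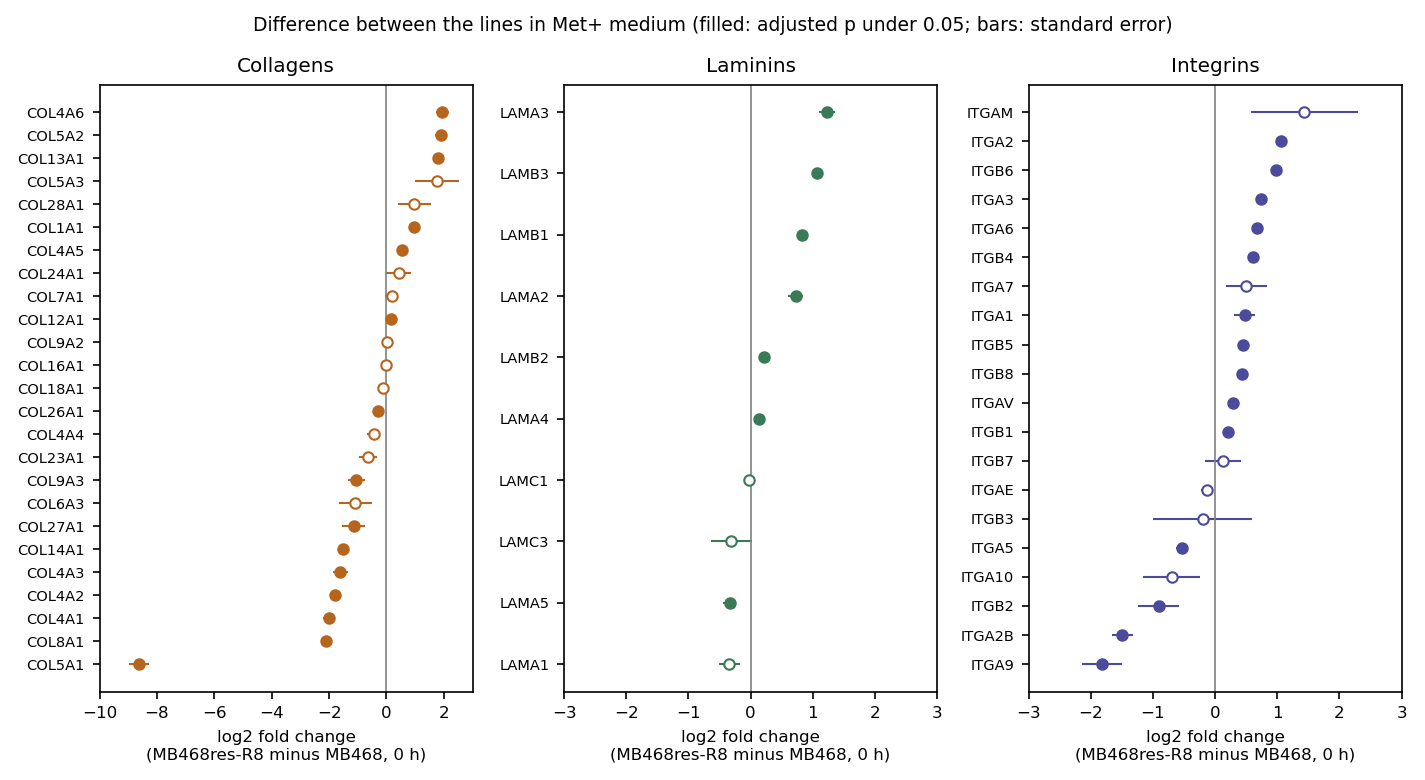
Difference between MB468res-R8 and MB468 at 0 h in Met+ medium for 55 of the 56 tested members, as log2 fold change (horizontal axis, positive where MB468res-R8 was higher) with its standard error. Filled points passed adjusted p under 0.05; COL5A1 stands apart at -8.62, 6 of the 10 laminins drawn are filled to the right of 0, and the collagens spread to both sides.

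Among the fibrillar collagens, COL5A1, the main chain of type V collagen, was nearly lost in MB468res-R8. MB468 libraries held 318, 343 and 298 normalized counts (counts scaled to a common library size), and MB468res-R8 libraries held 0, 0 and 2.62. The groups were far apart, with 996 raw counts in the 3 MB468 libraries against 2 in the 3 MB468res-R8 libraries, a ratio of 472 (95% interval 130.3 to 3902 from counting error only). The fitted log2 fold change was -8.62 (SE 0.34, adjusted p = 2.57e-23), a value that depends on the small count added in the fit. Its partner COL5A2 went the other way, with 43.1, 29.5 and 19.7 normalized counts in MB468 and 140.4, 102 and 109 in MB468res-R8. The groups did not overlap, and the log2 fold change was 1.89 (SE 0.21, adjusted p = 7.88e-10). COL1A1 held 778, 760.2 and 753 in MB468 and 1566, 1665 and 1233 in MB468res-R8, a log2 fold change of 0.97 (SE 0.083, adjusted p = 9.59e-12), with all 3 MB468res-R8 libraries above the MB468 libraries.

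Both genes of the COL4A1 and COL4A2 pair, which encode the most widespread collagen IV chains, were lower in MB468res-R8. COL4A1 held 114, 127 and 153 normalized counts in MB468 against 27.8, 34.7 and 35.3 in MB468res-R8. COL4A2 held 245, 214 and 219 against 67.4, 68.2 and 56.2. In neither gene did the groups overlap, and the log2 fold changes were -2.02 (SE 0.18, adjusted p = 2.87e-12) and -1.81 (SE 0.16, adjusted p = 5.43e-13). The X-linked pair was higher in MB468res-R8. COL4A6 held 23.3, 27.1 and 19.7 in MB468 against 96.7, 68.2 and 111 in MB468res-R8, and COL4A5 1015, 1103 and 1039.9 against 1538, 1549 and 1535. The log2 fold changes were 1.94 (SE 0.22, adjusted p = 9.95e-10) and 0.55 (SE 0.055, adjusted p = 4.01e-11), and with spike-in totals the call of COL4A5 was lost (adjusted p = 0.119). In the third pair COL4A3 was lower, at -1.60 (adjusted p = 2.52e-06), while COL4A4 gave -0.45 (adjusted p = 0.0737). Per kb of merged exons, COL4A5 was the most abundant collagen IV chain in both lines, with 88.7 ± 3.82 normalized counts per kb in MB468 (SD, n = 3) and 129.8 ± 0.627 in MB468res-R8, where COL4A2 had 11.7 ± 0.869 and 3.32 ± 0.348. Divided by the longest transcript instead, COL4A5 stood at 161 in MB468 and 236 in MB468res-R8, and COL4A2 at 35.0 and 9.92. The order was the same, but the size of the gap depends on the length used.

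Of the other collagens, COL8A1, a short-chain network collagen, held 138, 123 and 104 normalized counts in MB468 and 27.8, 28.0 and 30.1 in MB468res-R8, without overlap, and a log2 fold change of -2.10 (SE 0.19, adjusted p = 4.12e-12). COL14A1, which associates with fibrils, was also lower, at -1.53 (adjusted p = 1.02e-21), and the transmembrane COL13A1 was higher, at 1.79 (adjusted p = 7.45e-15). COL12A1, a fibril-associated collagen and a large part of the collagen counts, differed by only 0.16 (adjusted p = 0.00653), a call that was lost without MB468 0 h replicate 3 (adjusted p = 0.0518) and a sign that turned with spike-in totals (-0.14). COL18A1, the precursor of endostatin, did not pass, at -0.13 (adjusted p = 0.184), nor did COL7A1 of the anchoring fibrils, at 0.18 (adjusted p = 0.527), or COL16A1, at -0.00046 (adjusted p = 0.998). The remaining calls among the collagens were COL9A3 (-1.05, adjusted p = 0.00247), COL27A1 (-1.14, adjusted p = 0.0159) and COL26A1 (-0.30, adjusted p = 0.0271), all lower.

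LAMA3 and LAMB3, chains of the laminin of hemidesmosomes, were higher in MB468res-R8. LAMB3 held 738, 822 and 699.8 normalized counts in MB468 and 1675, 1559 and 1539 in MB468res-R8. LAMA3 held 104, 109 and 95.6 and 259, 252 and 212. Neither overlapped between the lines, with log2 fold changes of 1.07 (SE 0.061, adjusted p = 1.51e-18) and 1.22 (SE 0.13, adjusted p = 1.02e-10). The chains of laminin α5β1γ1 did not move together. LAMB1 was higher in MB468res-R8, with 985, 977 and 971 in MB468 and 1797, 1662 and 1746 in MB468res-R8, a log2 fold change of 0.83 (SE 0.052, adjusted p = 3.01e-17). LAMA5 was lower, with 5537, 4839 and 5344 and 3928, 4604 and 3906, at -0.34 (SE 0.10, adjusted p = 0.0105). LAMC1 held 6647, 6552 and 6443 in MB468 and 6424, 6703 and 6279 in MB468res-R8, overlapping groups at -0.018 (adjusted p = 0.704). LAMA2, the alpha chain of the laminin of muscle and peripheral nerve, held 87.0, 87.6 and 85.7 in MB468 and 142, 145 and 144 in MB468res-R8 without overlap, at 0.72 (SE 0.13, adjusted p = 4.87e-06). That call was lost with spike-in totals (0.42, adjusted p = 0.0554). LAMB2 and LAMA4 were higher by 0.21 (adjusted p = 0.00738) and 0.13 (adjusted p = 0.00351), and LAMA1 and LAMC3, at -0.34 (adjusted p = 0.0821) and -0.31 (adjusted p = 0.45), did not pass. The values of LAMB2 and LAMA4 with spike-in totals were not examined. Both changes were smaller in size than the median of all genes there (-0.31).

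Per kb of merged exons, the most abundant laminin chains in MB468 were LAMB2 (777 ± 18.5 normalized counts per kb, SD, n = 3) and LAMC1 (775 ± 12.1), which did not differ beyond their spread, followed by LAMA4 (549 ± 16.5) and LAMA5 (367 ± 25.2). LAMA3 was scarcer than LAMB3, at 7.10 ± 0.474 per kb against 162 ± 13.5. In MB468res-R8 LAMA3 stood at 16.6 ± 1.76 against 342 ± 15.8. Divided by the longest transcript instead, LAMA3 in MB468 was at 9.66 per kb and LAMB3 at 175, so that order was the same, while LAMB2, LAMA4 and LAMC1 in MB468 then stood at 937, 909.8 and 826. Poly(A)-selected libraries can read the 3′ end of long transcripts more often, and such a bias was not tested.

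**Figure D2:**
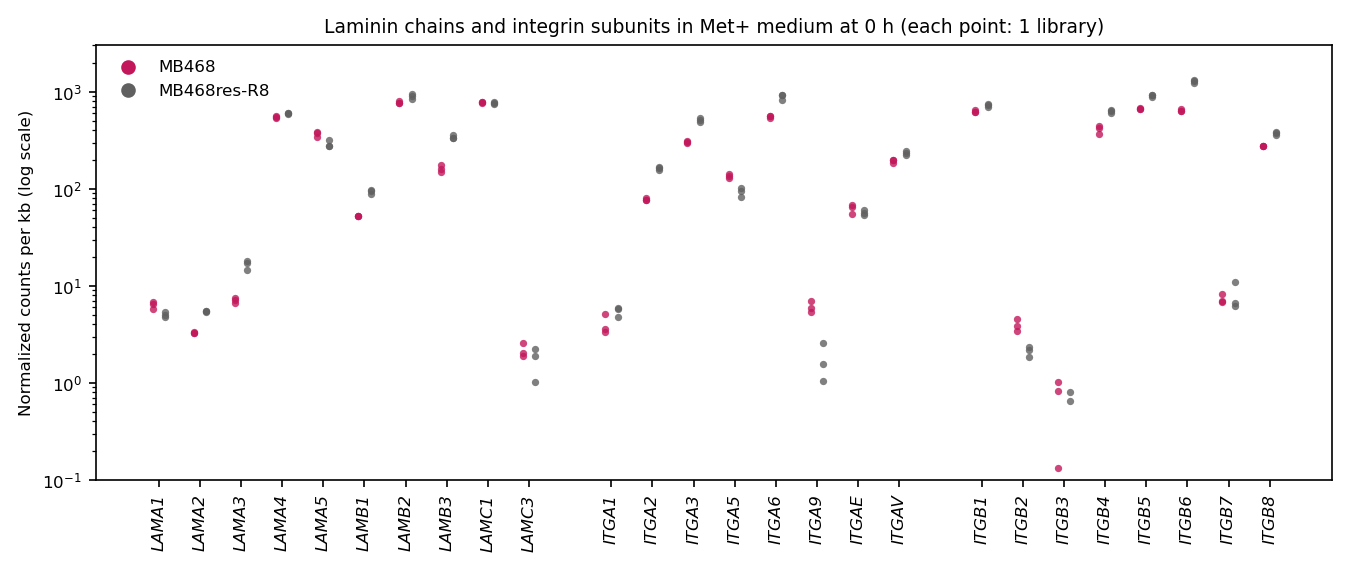
Normalized counts per kb of merged exons (vertical axis, log scale) for 10 laminin chains and 16 integrin subunits in Met+ medium at 0 h, 1 point per library for MB468 and MB468res-R8. LAMA3 lies far below LAMB3 in both lines, and ITGB6 is among the highest subunits in MB468res-R8; the MB468res-R8 library in which ITGB3 had 0 counts has no place on a log axis and is not drawn.

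Of the 6 tested alpha subunits of laminin- or collagen-binding integrins, 4 were higher in MB468res-R8 and none was lower. Over all tested genes 26.4% were higher and 27.1% lower, and this count was not made with spike-in totals. ITGA7 and ITGA10 did not pass, at 0.50 (adjusted p = 0.212) and -0.70 (adjusted p = 0.207). ITGA6 held 3789, 3800.0 and 3559.6 normalized counts in MB468 and 6181, 6180.5 and 5484 in MB468res-R8, and its partner ITGB4 3001, 2894 and 2509.8 and 4427, 4329 and 4098. Neither overlapped between the lines, at 0.68 (SE 0.049, adjusted p = 5.04e-15) and 0.61 (SE 0.051, adjusted p = 2.9e-13). ITGA3 held 2977, 3079 and 2875 in MB468 and 4959, 5252 and 4778 in MB468res-R8, and ITGA2 606, 635 and 599 and 1297, 1227 and 1323. These log2 fold changes were 0.75 (SE 0.054, adjusted p = 2.38e-14) and 1.06 (SE 0.07, adjusted p = 2.2e-16), while the shared partner ITGB1, at 9078, 9347 and 8983 against 10531, 10902 and 10067, differed by 0.20 (adjusted p = 1.19e-05) and turned sign with spike-in totals (-0.11). Among the subunits that pair with αV, ITGB6, whose product with αV binds latent TGF-β, held 3885, 3665 and 3706 in MB468 and 7502, 7088 and 7652 in MB468res-R8. The groups lay wide apart, at 0.98 (SE 0.044, adjusted p = 6.23e-22). ITGB5 gave 0.44 (adjusted p = 4.54e-12) and ITGB8 0.43 (adjusted p = 9.95e-06), both without a call under spike-in totals (adjusted p = 0.397 and 0.426), and ITGAV gave 0.29 (adjusted p = 1.64e-06) and, with spike-in totals, -0.016. ITGA1, another collagen-binding alpha subunit, was higher by 0.47 (adjusted p = 0.0158).

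A smaller group of integrins was lower in MB468res-R8. ITGA9, whose product with β1 binds tenascin-C, held 43.97, 48.6 and 57.6 normalized counts in MB468 and 8.72, 21.3 and 13.1 in MB468res-R8, at -1.82 (SE 0.33, adjusted p = 8.89e-06). ITGA2B, best known from platelets, was at -1.49 (adjusted p = 2.02e-09), and ITGA5, the fibronectin receptor subunit, at -0.54 (adjusted p = 1.46e-05). ITGB2 of leukocyte integrins was called at -0.91 (adjusted p = 0.0186), a call lost without MB468 0 h replicate 2 (adjusted p = 0.0908) or MB468res-R8 0 h replicate 2 (adjusted p = 0.0680). Levels of ITGB2 were low, at 25.1, 33.5 and 28.1 against 15.9, 13.4 and 17.0 normalized counts.

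The next comparisons ask how each line changed after the switch to Met-Hcy+ medium. At 0.5 h the members fell more often than they rose in both lines, and LAMA1, ITGB8 and LAMA2 were among those that fell most in each. In MB468, 2 members were higher and 17 lower than at 0 h, where 17.6% of all tested genes were higher and 16.4% lower. In MB468res-R8, 1 was higher and 17 lower, with 17.4% and 16.3% over all genes. The lines share no libraries, and 14 members were lower in both, which is 82.4% of the 17 in each. Over all tested genes 1609 were lower in both, 66.7% of those lower in MB468 and 66.8% of those lower in MB468res-R8. No test of this difference was made. The medians of the members were -0.16 and -0.23, against 0.0072 and -0.0022 over all genes. With spike-in totals 0 were higher and 20 lower in MB468, and 0 higher and 7 lower in MB468res-R8, as the medians of all genes moved to -0.20 and 0.042.

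**Figure D3:**
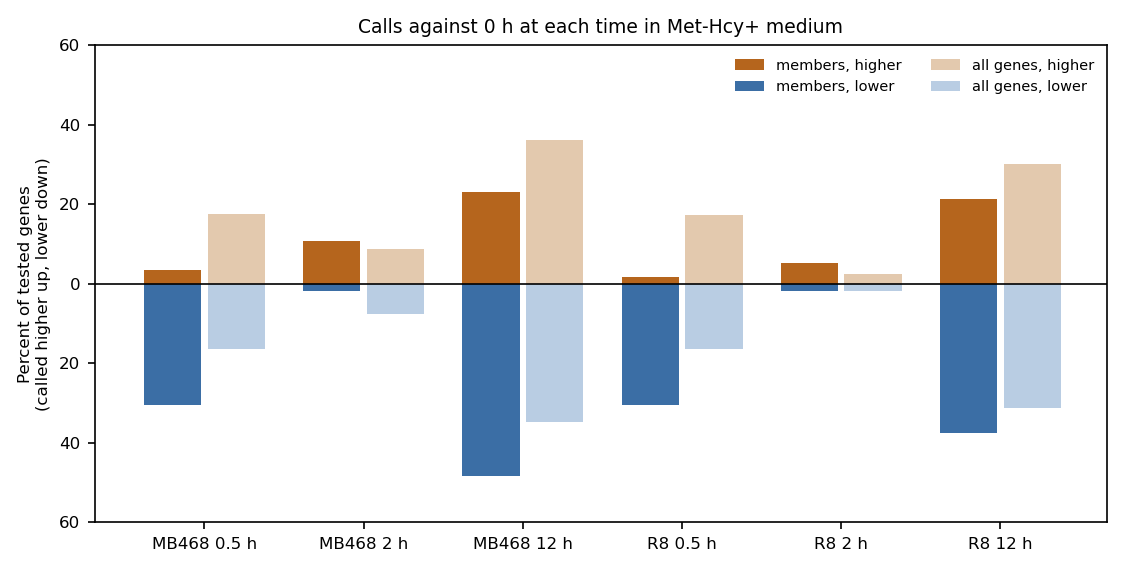
Percent of tested genes called higher (bars up) or lower (bars down) than at 0 h after 0.5, 2 and 12 h in Met-Hcy+ medium, for the 56 members (dark) and for all 14741 genes (pale), in MB468 and in MB468res-R8 (R8). The dark bars down at 0.5 h reach 30.4% in both lines against 16.4% and 16.3% for all genes, and few members were called at 2 h.

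ITGB8, a beta subunit that pairs with αV, fell early in both lines. In MB468 it went from 4186, 4194 and 4226 normalized counts at 0 h to 1867, 1846 and 1658 at 0.5 h. In MB468res-R8 it went from 5715, 5439 and 5847 to 2850.0, 2714 and 2465. No library at 0.5 h reached those at 0 h, and the log2 fold changes were -1.22 (SE 0.073, adjusted p = 2.21e-12) and -1.08 (SE 0.07, adjusted p = 8.9e-12). At 2 h it lay between these levels, at 3158, 3759.9 and 3639.7 in MB468 and 4441, 4052 and 4725 in MB468res-R8, and was still lower than at 0 h, at -0.26 (adjusted p = 0.0121) and -0.37 (adjusted p = 0.00124). It was low again at 12 h, at 2026, 1962 and 1728 and 2299, 2582 and 2575. The 12 h log2 fold changes against 0 h were -1.14 (SE 0.071, adjusted p = 5.2e-13) and -1.19 (SE 0.07, adjusted p = 4.45e-13), and the responses of the lines differed by less than their error (difference -0.048, adjusted p = 0.706).

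LAMA1, an alpha chain prominent in the embryo, fell at 0.5 h by a similar amount, at -1.33 (adjusted p = 2.2e-07) in MB468 and -1.29 (adjusted p = 9.73e-07) in MB468res-R8. The levels were low, from 92.4, 109 and 104 to 39.4, 38.0 and 46.2 normalized counts in MB468. ITGA2 fell in both lines and further in MB468res-R8, from 1297, 1227 and 1323 to 680.4, 657 and 620.2, at -0.97 (SE 0.071, adjusted p = 9.44e-15). In MB468 it gave -0.52 (SE 0.078, adjusted p = 6.21e-07), and the difference between the lines was -0.45 (adjusted p = 0.00806). COL12A1 fell further in MB468, from 3228, 3551 and 3242 to 2059, 1971 and 1895, at -0.75 (SE 0.053, adjusted p = 6.05e-15). MB468res-R8 gave -0.34 (SE 0.051, adjusted p = 1.1e-06), and the difference was 0.42 (adjusted p = 0.000226). LAMB3 also fell further in MB468, from 738, 822 and 699.8 to 443, 447 and 546, at -0.69 against -0.27 in MB468res-R8 (difference 0.42, adjusted p = 0.003). COL16A1 fell in MB468res-R8 from 270.4, 252 and 214 to 139.6, 108 and 103, at -1.06 (SE 0.12, adjusted p = 2.24e-09). It was also called lower in MB468, from 227, 271 and 242 to 181, 145 and 181, and the difference between the lines was not called. The members higher at 0.5 h in MB468 were ITGAV, at 0.19 (adjusted p = 0.00207), and LAMA4, at 0.12 (adjusted p = 0.0101), and LAMA4 was the one member higher in MB468res-R8, at 0.14 (adjusted p = 0.00338).

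Over all members, the 0.5 h response differed between the lines for 5 of 56, of which 4 had a higher log2 change in MB468res-R8 and 1 a lower one. Over all genes 1.2% differed in the first direction and 1.7% in the second. Besides COL12A1, LAMB3 and ITGA2 they included LAMC1, at 0.19 (adjusted p = 0.0285). With spike-in totals the count was 1 higher and 0 lower, and without MB468 0 h replicate 2 it was 3 in all.

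At 2 h few members differed from 0 h, and of the members called the largest change was that of LAMA2 in MB468. In MB468, 6 members were higher and 1 lower than at 0 h, where 8.88% and 7.47% of all genes were. In MB468res-R8, 3 were higher and 1 lower, where 2.52% and 1.85% of all genes were. ITGA5, ITGA6 and LAMB3 were higher in both lines and ITGB8 lower in both. The spike-in totals moved the median of all genes in MB468 to -0.42 and the calls to 1 higher and 28 lower, and gave 0 calls in MB468res-R8. Replicate 2 of MB468 at 2 h stood apart, with 8251 counts of the small nuclear RNA RN7SK against 44 to 357 in the other libraries, and without it 6 members were higher and 2 lower in MB468, with LAMA2 at 1.35. Without MB468 2 h replicate 1 there were 4 calls in MB468, and without MB468res-R8 0 h replicate 3 or MB468res-R8 2 h replicate 2 there was 1 in MB468res-R8.

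LAMA2 took opposite courses in the lines. In MB468 it held 87.0, 87.6 and 85.7 normalized counts at 0 h, 51.3, 35.8 and 38.5 at 0.5 h, 219, 253 and 225 at 2 h and 368, 379.7 and 366 at 12 h. In MB468res-R8 it held 142, 145 and 144, then 77.6, 81.1 and 60.2, 154, 144 and 149 and 102, 97.9 and 96.3. It fell in both lines at 0.5 h, rose past its 0 h level in MB468, and in MB468res-R8 was close to it at 2 h and below it at 12 h, with no overlap between 0 and 12 h in either line. Against 0 h the log2 fold changes in MB468 were -1.01 (SE 0.15, adjusted p = 6.9e-07), 1.41 (SE 0.12, adjusted p = 8.11e-12) and 2.09 (SE 0.12, adjusted p = 2.56e-19). Those in MB468res-R8 were -0.97 (SE 0.13, adjusted p = 7.4e-08), 0.046 (SE 0.12, adjusted p = 0.945) and -0.54 (SE 0.12, adjusted p = 0.000226). The responses of the lines differed by -1.36 (SE 0.17, adjusted p = 2.03e-07) at 2 h and -2.63 (SE 0.17, adjusted p = 1.2e-16) at 12 h, and not detectably at 0.5 h (0.036, adjusted p = 0.984).

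LAMB3 rose at 2 h in MB468 to 944, 937 and 948, at 0.32 (SE 0.065, adjusted p = 0.000352), and in MB468res-R8 to 1786, 2029 and 1837, at 0.25 (SE 0.057, adjusted p = 0.00467). ITGA6 rose to 4314, 4318 and 4536 in MB468, at 0.24 (SE 0.05, adjusted p = 0.000451), and gave 0.18 (adjusted p = 0.0217) in MB468res-R8. ITGA5 rose by 0.32 (adjusted p = 0.0123) in MB468 and 0.36 (adjusted p = 0.02) in MB468res-R8. With spike-in totals LAMB3 and ITGA6 in MB468 turned to -0.099 and -0.18. The ITGA5 value in MB468 was not examined with spike-in totals, which moved the median of all genes there to -0.42. In MB468res-R8 the ITGA5 call was lost without 0 h replicate 1 or 3 or 2 h replicate 2 (adjusted p = 0.0641, 0.144 and 0.25), and that of LAMB3 without 0 h replicate 3 or 2 h replicate 2 (adjusted p = 0.0509 and 0.162). The 2 h response differed between the lines for 2 members, both more negative in MB468res-R8, where 2.88% of all genes were more negative and 2.19% less. They were LAMA2 and ITGAM, the latter at levels under 1 CPM and named after its values were seen. ITGAM passed the low-count filter only through the MB468 12 h libraries. There was 1 call without any one of 7 libraries (MB468 0 h replicates 1 and 2, MB468res-R8 0 h replicates 1 and 3, MB468 2 h replicate 1 and MB468res-R8 2 h replicates 2 and 3). With spike-in totals 1 was higher and 2 were lower.

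**Figure D4:**
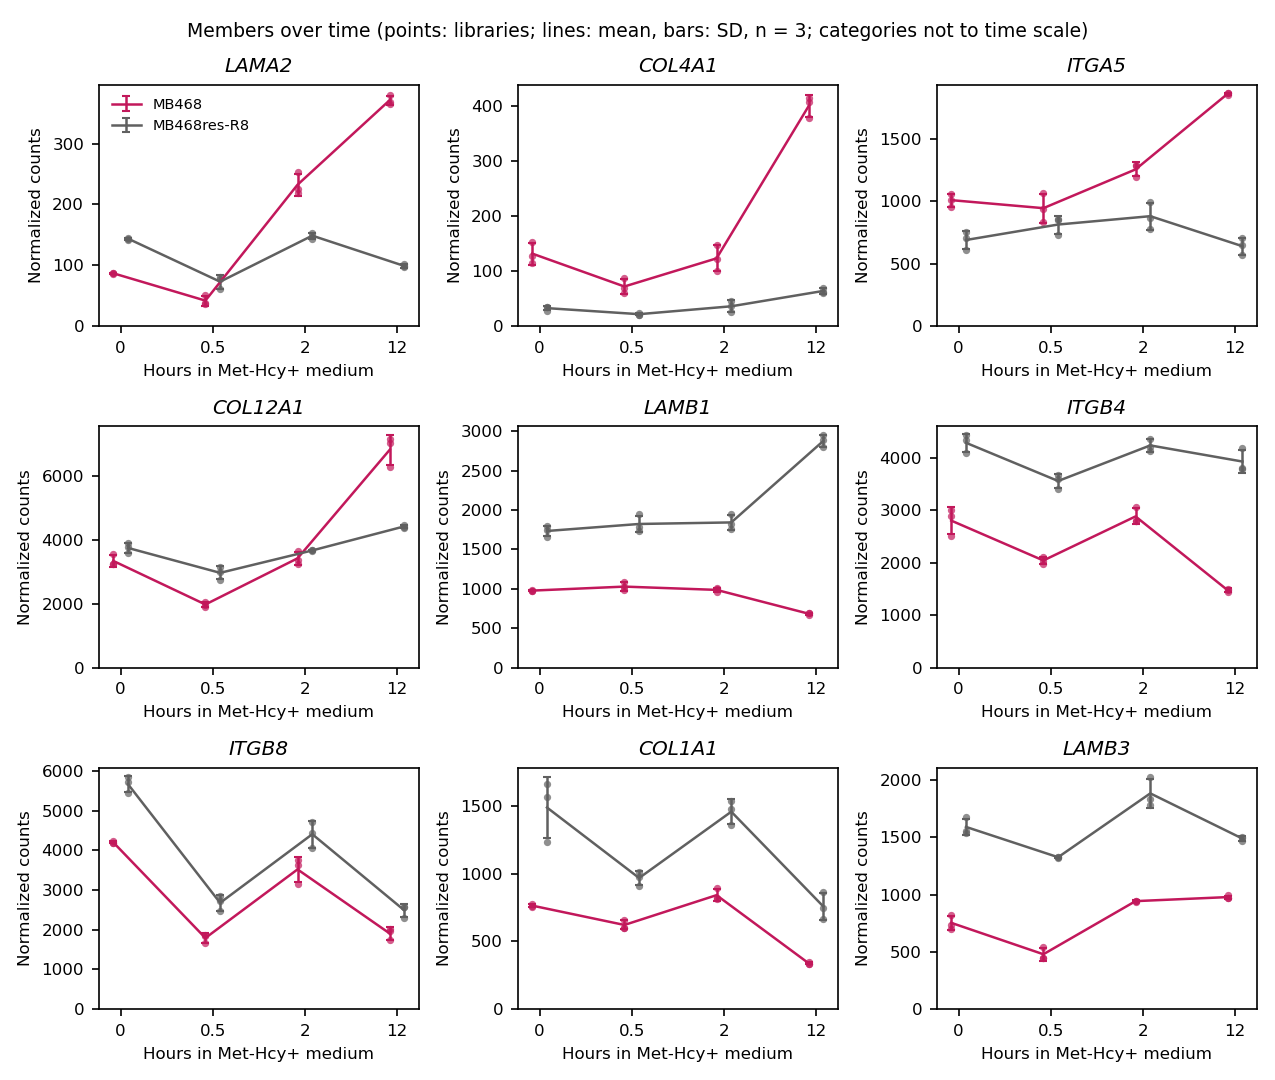
Normalized counts (vertical axes, from 0) of 9 members at 0 h in Met+ medium and after 0.5, 2 and 12 h in Met-Hcy+ medium, for MB468 (magenta) and MB468res-R8 (grey), with points for libraries, lines for means and bars for SD (n = 3). LAMA2, COL4A1, ITGA5 and COL12A1 climb in MB468 to 371, 399, 1859 and 6817 at 12 h, LAMB1 climbs in MB468res-R8, and ITGB8 falls in both lines at 0.5 h and 12 h.

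At 12 h the members had changed most. In MB468 the collagen IV pair, LAMA2, COL12A1, the laminin chain LAMB3, ITGA3 and ITGA5 were higher than at 0 h, while most other collagens and the β4, β6 and β8 integrin subunits were lower. Of 56 members 13 were higher and 27 lower, where 36.1% and 34.7% of all genes were. The members higher thus made up a smaller share than over all genes and those lower a larger share, and the median of the members was -0.29 against 0.0073. By family 5 collagens were higher and 13 lower, 3 laminins higher and 4 lower, and 5 integrins higher and 10 lower. The 5 integrins higher include ITGB3 and ITGAM, which passed the low-count filter only through the MB468 12 h libraries. With spike-in totals the median of all genes moved to -0.23 and the split to 11 higher and 30 lower. The summed level of the 8 epithelial markers was 3255 to 3479 CPM at 12 h in MB468 against 5076 to 5318 at 0 h, and its part in these results was not tested. This sum weighs the keratins most, as KRT8, KRT18 and KRT19 lay above the other markers in all libraries.

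COL4A1 rose the most among the collagens at 1 CPM or above. In MB468 it went from 114, 127 and 153 normalized counts at 0 h to 378, 413 and 407 at 12 h. The lowest 12 h library was more than 2-fold above the highest at 0 h, at 1.61 (SE 0.14, adjusted p = 3.24e-13). It had dipped first, to 87.0, 59.2 and 69.3 at 0.5 h (-0.83, adjusted p = 8.72e-05). Its head-to-head neighbour COL4A2 rose less, to 389, 378 and 374, at 0.75 (SE 0.13, adjusted p = 2.05e-06). COL12A1 rose from its 0.5 h low to 7145, 7034 and 6272, at 1.03 (SE 0.05, adjusted p = 7.08e-21) against 0 h. COL5A2 was called at 0.78 (adjusted p = 0.00227), from 43.1, 29.5 and 19.7 to 49.5, 52.9 and 60.8, without a call under spike-in totals (adjusted p = 0.0530).

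The collagens that fell in MB468 at 12 h were of several kinds. COL1A1 fell from 778, 760.2 and 753 to 331, 346 and 336 normalized counts, at -1.18 (SE 0.091, adjusted p = 2.49e-13). COL5A1 fell from 318, 343 and 298 to 150.3, 157 and 170.4, at -1.01 (SE 0.15, adjusted p = 1.17e-07), and COL18A1 to 2348, 2389 and 2332, at -1.11 (SE 0.082, adjusted p = 2.81e-10). None of the 3 overlapped with 0 h. COL8A1 fell to 48.9, 41.0 and 59.6, at -1.28 (SE 0.17, adjusted p = 2.15e-08). COL9A3, a chain of cartilage collagen IX, had the largest fall, from 51.1, 45.4 and 36.5 to 9.77, 10.8 and 12.0, at -2.03 (SE 0.31, adjusted p = 1.96e-07), at a low level. COL14A1 gave -1.15 (adjusted p = 6.13e-19), COL9A2 -0.67 (adjusted p = 7.36e-12), COL7A1 -0.95 (adjusted p = 0.000522) and COL4A5 -0.64 (adjusted p = 5.01e-13). COL4A3 and COL4A4 fell together, at -0.53 (adjusted p = 0.0419) and -0.58 (adjusted p = 0.0134), while COL4A6 gave 0.22 (adjusted p = 0.435).

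Among the laminins in MB468, LAMB3 rose to 993, 971 and 971 normalized counts, at 0.37 (SE 0.061, adjusted p = 1.27e-06), a call lost with spike-in totals (adjusted p = 0.382). LAMA3, which joins LAMB3 in hemidesmosomal laminin, gave 0.16 (adjusted p = 0.295) and, with spike-in totals, -0.083. LAMB1 fell to 694, 690.3 and 668, at -0.52 (SE 0.054, adjusted p = 3.87e-11), and LAMC1 to 5234, 5045 and 5021, at -0.36 (SE 0.036, adjusted p = 1.1e-11). LAMA5 did not pass, at 0.021 (adjusted p = 0.862), and its sign turned with DESeq2 size factors (-0.0017) and spike-in totals (-0.22). LAMA4, the alpha chain of vessel walls and the most abundant alpha chain per kb, fell from 6748, 6619.9 and 6360.3 to 3531, 3598 and 3804, at -0.85 (SE 0.038, adjusted p = 2.44e-22), and LAMB2 gave -0.53 (adjusted p = 6.5e-08).

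Among the integrins in MB468, ITGA5 rose from 956, 1007 and 1059.6 to 1849, 1866 and 1861 normalized counts, at 0.89 (SE 0.085, adjusted p = 3.8e-10). ITGA3 rose to 4655, 4666 and 4795, at 0.66 (SE 0.053, adjusted p = 1.96e-13). ITGB2 rose at a low level to 50.7, 65.8 and 58.3, at 0.99 (SE 0.28, adjusted p = 0.00174). ITGB4 fell from 3001, 2894 and 2509.8 to 1436, 1479.9 and 1506, at -0.93 (SE 0.053, adjusted p = 8.58e-19), while its partner ITGA6 fell by far less, to 3156, 3213 and 3162, at -0.23 (SE 0.049, adjusted p = 9.05e-05). ITGB6 fell to 2042, 2138 and 2047, at -0.86 (SE 0.045, adjusted p = 5.26e-20), and ITGA9 to 15.3, 17.3 and 19.6, at -1.51 (SE 0.30, adjusted p = 2.77e-05). ITGA2 gave -0.53 (adjusted p = 4.33e-08), ITGA2B -1.14 (adjusted p = 7.75e-08) and ITGB1 -0.13 (adjusted p = 0.00242). ITGB3 and ITGAM, both under 1 CPM on average and named after their values were seen, were called higher. Both passed the low-count filter only through these MB468 12 h libraries, so their calls are no separate support for a rise. ITGB3 went from 0.897, 5.58 and 7.03 to 42.8, 23.7 and 31.0, and ITGAM from 4 raw counts in 3 libraries to 88, a ratio of 16.4 (95% interval 6.17 to 61.4 from counting error only).

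In MB468res-R8 at 12 h LAMB1, LAMA3, ITGA3 and the collagen IV pair were higher than at 0 h, and COL1A1, COL7A1, COL9A3 and ITGB8 were among those lower. Of 56 members 12 were higher and 21 lower, where 30.2% and 31.1% of all genes were, and the median of the members was -0.17 against -0.019. By family 5 collagens were higher and 12 lower, 3 laminins higher and 4 lower, and 4 integrins higher and 5 lower. With spike-in totals 8 were higher and 20 lower, with the median of all genes at 0. The lines shared 6 of the members higher, out of 13 in MB468 and 12 in MB468res-R8, among them COL12A1, COL4A1, COL4A2, ITGA3 and COL5A3, the last of which was under 1 CPM on average. COL5A3 passed the low-count filter only through the MB468res-R8 12 h libraries. They shared 15 of those lower, which is 55.6% of 27 and 71.4% of 21. Over all tested genes they shared 2656 of those higher, out of 5317 and 4450, and 2667 of those lower, which is 52.2% and 58.2%. For COL5A1, LAMB1, ITGA6 and ITGB5 the call was lower in MB468 and higher in MB468res-R8, and LAMA2 was the reverse. Opposite calls were not counted over all tested genes, so whether they were frequent among the members cannot be told. The COL5A1 call in MB468res-R8 rested on few counts and was lost without 12 h replicate 3 (adjusted p = 0.0765). For ITGA6 and ITGB5 the call in MB468res-R8 was lost with spike-in totals (adjusted p = 0.282 and 0.225), and for ITGA6 also without MB468res-R8 0 h replicate 3 (adjusted p = 0.155) or 12 h replicate 2 (adjusted p = 0.109). The 8 epithelial markers summed to 5600 to 5842 CPM at 12 h in MB468res-R8 against 5998 to 6316 at 0 h. Single markers differed from this sum. KRT19 fell by -1.37 in MB468 and -0.15 in MB468res-R8. CDH1 (-0.10 and -0.72), CLDN4 (-0.58 and -1.48) and CLDN7 (-0.52 and -0.73) fell further in MB468res-R8. Of the 8, the 12 h response was higher in MB468res-R8 for 4 and lower for 4, where 26.2% and 30.3% of all genes were.

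LAMB1 had the smallest p of the members that rose in MB468res-R8, from 1797, 1662 and 1746 normalized counts at 0 h to 2949, 2801 and 2889.6 at 12 h, at 0.73 (SE 0.048, adjusted p = 1.75e-16). No 12 h library overlapped with 0 h, and in MB468 the same gene had fallen. COL4A1 rose from 27.8, 34.7 and 35.3 to 62.6, 69.5 and 59.5, at 0.99 (SE 0.20, adjusted p = 4.82e-05), and COL4A2 from 67.4, 68.2 and 56.2 to 88.5, 109 and 118, at 0.70 (SE 0.17, adjusted p = 0.000404). Even so, both stayed below the 0 h level of MB468. ITGA3 rose to 8624, 7354 and 8163, at 0.69 (SE 0.052, adjusted p = 7.54e-14). LAMA3 rose from 259, 252 and 212 to 342, 342 and 298, at 0.43 (SE 0.11, adjusted p = 0.00127). COL12A1 rose by 0.24 (adjusted p = 6.96e-05), without a call under spike-in totals (adjusted p = 0.0911). COL5A1 had 2 raw counts at 0 h and 16 at 12 h in 3 libraries each, a ratio of 7.64 (95% interval 1.80 to 68.5 from counting error only), and its call was lost without 12 h replicate 3 (adjusted p = 0.0765).

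Several members fell in MB468res-R8 at 12 h. COL1A1 fell from 1566, 1665 and 1233 to 863, 663 and 744 normalized counts, at -0.98 (SE 0.083, adjusted p = 5.9e-12), and COL7A1 from 56.3, 76.1 and 58.8 to 23.2, 17.1 and 19.8, at -1.65 (SE 0.26, adjusted p = 5.69e-07). COL9A3 fell from 17.4, 24.6 and 23.5 to 1.79, 4.56 and 9.44, at -2.01 (SE 0.40, adjusted p = 3.15e-05), at a level of few counts. COL16A1 and COL14A1 were at -1.02 (adjusted p = 1.48e-09) and -1.18 (adjusted p = 1.33e-15), and COL4A6 and COL4A5 at -0.72 (adjusted p = 0.00209) and -0.53 (adjusted p = 8.11e-11). ITGA2B fell to 17.0, 23.9 and 19.8, at -1.21 (SE 0.22, adjusted p = 8.21e-06), and ITGB6 from 7502, 7088 and 7652 to 4782, 4866 and 4906, at -0.61 (SE 0.043, adjusted p = 1.34e-15). LAMA4 and LAMB2 were lower, at -0.46 (adjusted p = 1.37e-13) and -0.73 (adjusted p = 4.51e-10). LAMA5 was called at -0.35 (adjusted p = 0.00853), lost without 0 h replicate 2 (adjusted p = 0.0522). ITGB4 stayed near its 0 h level, at 4188, 3799 and 3794 against 4427, 4329 and 4098, and its call (-0.13, adjusted p = 0.0279) was lost without 0 h replicate 1 or 2 or 12 h replicate 2 or 3 (adjusted p 0.0621 to 0.234). COL18A1 and ITGA5 did not pass, at -0.17 (adjusted p = 0.085) and -0.11 (adjusted p = 0.334).

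**Figure D5:**
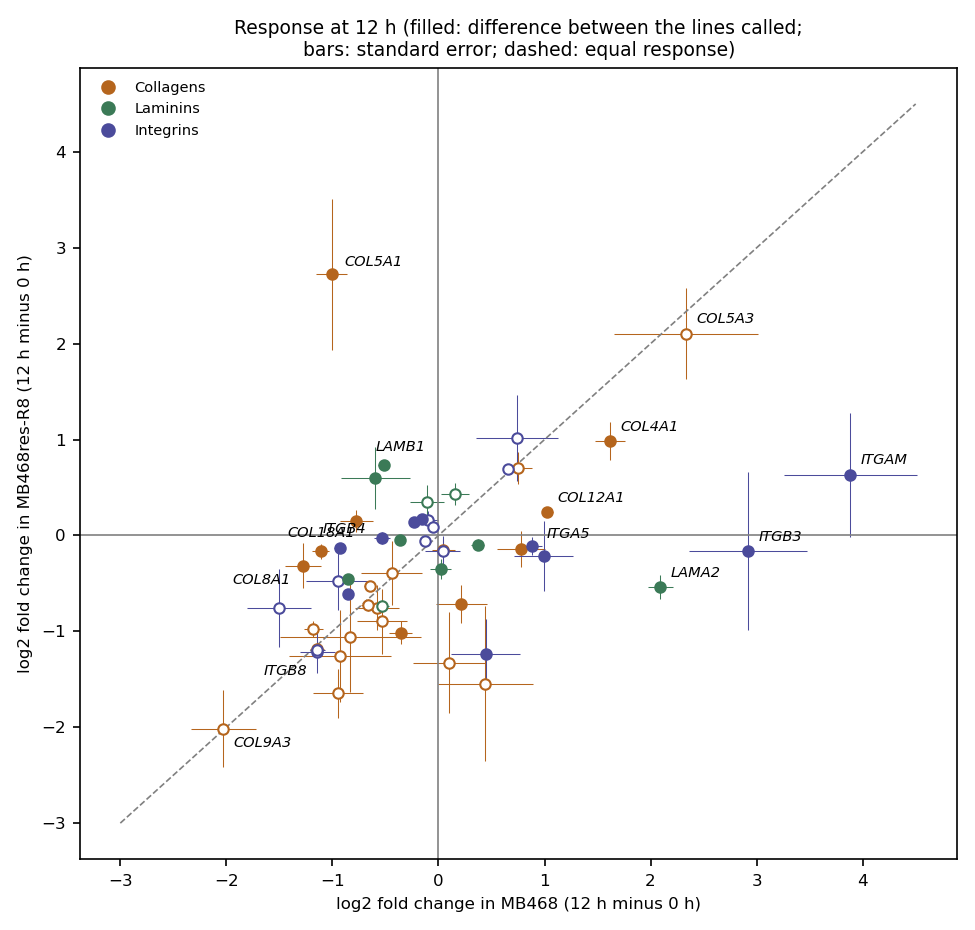
Log2 fold change from 0 to 12 h in MB468 (horizontal) and in MB468res-R8 (vertical) for 55 of the 56 members, with standard errors; the dashed line marks equal responses and filled points passed the test of the difference between the lines. LAMA2 lies to the lower right, LAMB1 and COL5A1 to the upper left, and ITGB8 and COL9A3 on the line.

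The last comparison asks whether the 12 h response differed between the lines. It differed for 26 of 56 members, 13 with a higher log2 change in MB468res-R8 and 13 with a lower one, where 26.2% and 30.3% of all genes did. The median difference of the members was -0.04 against -0.054 over all genes, and with spike-in totals the split was 15 to 6 as the median of all genes moved to 0.20. By family, 4 collagens were higher and 5 lower, 4 laminins higher and 3 lower, and 5 integrins higher and 5 lower. Among those higher were LAMB1, at 1.25 (SE 0.072, adjusted p = 5.64e-18), COL8A1, at 0.96 (SE 0.29, adjusted p = 0.00494), COL18A1, at 0.95 (SE 0.12, adjusted p = 7.97e-07), and ITGB4, at 0.81 (SE 0.073, adjusted p = 2.46e-12). COL5A1 gave 3.73 (SE 0.78, adjusted p = 8.74e-05) on counts near 0 in MB468res-R8. Among those lower were LAMA2, given above, ITGA5, at -0.995 (SE 0.13, adjusted p = 1.61e-07), COL4A6, at -0.93 (SE 0.32, adjusted p = 0.0109), and COL12A1, at -0.79 (SE 0.07, adjusted p = 2.05e-12). The COL4A6 call was lost without MB468res-R8 12 h replicate 3 (adjusted p = 0.0534). ITGB2 was called at -1.21 (adjusted p = 0.0237), and the call was lost without any of 6 libraries (adjusted p 0.0505 to 0.0952), namely MB468 0 h replicate 1, MB468res-R8 0 h replicates 1 and 3, MB468 12 h replicate 2 and MB468res-R8 12 h replicates 1 and 3.

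The collagen IV pair differed in its parts. COL4A1 responded more in MB468, with a difference of -0.63 (SE 0.25, adjusted p = 0.03), but the call was lost without 8 of 12 libraries in turn (adjusted p 0.0507 to 0.0919), and COL4A2 gave -0.048 (adjusted p = 0.869). The 4 libraries whose loss kept the call were MB468 0 h replicate 3, MB468res-R8 0 h replicate 1, MB468 12 h replicate 1 and MB468res-R8 12 h replicate 2. No difference was detected for ITGA3 (0.029, adjusted p = 0.76), COL1A1 (0.20, adjusted p = 0.159) and COL14A1 (-0.035, adjusted p = 0.843). Of the hemidesmosome integrin, ITGA6 gave 0.37 (adjusted p = 1.61e-05), smaller than the value of ITGB4. LAMB3 gave -0.47 (adjusted p = 8.46e-06), without a call under spike-in totals (adjusted p = 0.385). The other differences called were COL13A1 (0.93), LAMC3 (1.196), ITGA2 (0.50), LAMA4 (0.40), ITGB5 (0.33), LAMC1 (0.32) and ITGB6 (0.24), which were higher in MB468res-R8, and COL5A2 (-0.92), COL16A1 (-0.66), LAMA5 (-0.37), ITGA7 (-1.68), ITGAM (-3.25) and ITGB3 (-3.08), which were lower. Of these LAMC3, ITGA7, ITGAM and ITGB3 were named after their values were seen, and COL13A1 and LAMA4 were also outside the naming rule given below. ITGAM and ITGB3 passed the low-count filter only through MB468 at 12 h, the group in which they were high.

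The genes that process, bind and signal from these proteins were taken from companion lists, which were drawn up with earlier results known. Their counts can be read against the shares of all tested genes given above, which were 26.4% higher and 27.1% lower at 0 h, 36.1% and 34.7% at 12 h in MB468, 30.2% and 31.1% at 12 h in MB468res-R8 and 26.2% and 30.3% in the 12 h difference. Of 33 collagen maturation genes 27 were tested, with 13 higher and 5 lower in MB468res-R8 at 0 h, 7 higher and 15 lower at 12 h in MB468 and 7 higher and 8 lower in MB468res-R8. The response was higher in MB468res-R8 for 14 and lower for 4. P3H2, a prolyl 3-hydroxylase of collagen IV, rose in both lines, from 101 to 289 normalized counts in MB468 (1.50, adjusted p = 9.15e-14) and from 109.7 to 575 in MB468res-R8 (2.38, adjusted p = 1.01e-19). LOX and LOXL4, which cross-link collagen, were among the 5 lower in MB468res-R8 at 0 h, at -2.38 (adjusted p = 8.6e-23) and -4.85 (adjusted p = 3.29e-19). PCOLCE2, an enhancer of procollagen processing, fell in MB468 (-1.06, adjusted p = 2.15e-05) and rose in MB468res-R8 (1.30, adjusted p = 1.37e-07).

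Of 25 matrix partners and other receptors 23 were tested, with 9 higher and 6 lower in MB468res-R8 at 0 h, 4 higher and 13 lower at 12 h in MB468 and 3 higher and 15 lower in MB468res-R8. The 12 h response was higher in MB468res-R8 for 3 and lower for 7. TNC, which encodes tenascin-C, a ligand of α9β1, rose in MB468 (1.25, adjusted p = 2.03e-08) and further in MB468res-R8 (2.41, adjusted p = 6.85e-13), with a difference of 1.16 (adjusted p = 5.83e-06). The collagen receptor DDR2 fell in MB468 (-0.66, adjusted p = 2.74e-12) and in MB468res-R8 (-1.41, adjusted p = 7.64e-19), FBLN1 fell in both (-0.66 and -0.69), and FREM2 as well, at -1.56 and -0.52. Of 30 integrin adhesion proteins 28 were tested, with 11 higher and 11 lower in MB468res-R8 at 0 h, 7 higher and 18 lower at 12 h in MB468 and 7 higher and 14 lower in MB468res-R8, and the response was higher in MB468res-R8 for 14 and lower for 3. TNS4, a tensin that binds the β tails, fell in both lines (-2.93, adjusted p = 3.6e-18 and -2.83, adjusted p = 7.68e-21). VCL, which encodes vinculin, fell in MB468 (-1.32, adjusted p = 1.3e-28) more than in MB468res-R8 (-0.38, adjusted p = 1.84e-11), with a difference of 0.94 (adjusted p = 2.35e-18). ZYX and FERMT3 also differed in response, by 0.44 (adjusted p = 9.56e-08) and 1.72 (adjusted p = 0.000873). Of 24 proteases and inhibitors 17 were tested, with 10 higher and 4 lower in MB468res-R8 at 0 h, 5 higher and 7 lower at 12 h in MB468 and 3 higher and 11 lower in MB468res-R8. Their 12 h response was higher in MB468res-R8 for 3 and lower for 8. MMP7 was one of the 4 lower in MB468res-R8 at 0 h (-4.78, adjusted p = 1.08e-22) and rose in both lines at 12 h (1.91, adjusted p = 1.34e-18 and 2.51, adjusted p = 4.93e-11). PLAT and PLAUR of the plasminogen system fell in MB468res-R8 (-1.86, adjusted p = 2.06e-09 and -1.65, adjusted p = 2.11e-10), with differences between the lines of -2.40 and -1.57.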

How the data were processed

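Poly(A)-selected single-end RNA-seq libraries with ERCC spike-ins were aligned by the authors with HISAT2 2.1.0 to GRCh38 plus the spike-in sequences and counted per gene with featureCounts (Subread 1.5.3). The whole-number counts per gene that the authors deposited were used as they stand, for 24 libraries, with all columns matched to a sample by name. The annotation release used for counting is not given in the sources used here. A deposited table of DESeq2-normalized counts, which lacks the 0.5 h libraries, and one of the authors' own fold changes, SEs and p-values were not used.

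Here, edgeR 4.0.16 (R 4.3.3) was fitted to all 24 libraries with 1 term per group: filterByExpr (minimum count 10, minimum total 15), TMM library sizes, a robust quasi-likelihood fit and Benjamini-Hochberg adjustment over 14741 genes, with calls at an adjusted p under 0.05. Every adjusted p in the text comes from this test or from its named alternative (DESeq2 1.42.0 for the Wald test and for size factors), and each SE is the absolute log2 fold change divided by the square root of the F statistic. Normalized counts are counts divided by TMM library sizes and rescaled to their mean. Spike-in totals as library sizes, other filters, another threshold, a replicate block and the loss of each library were tried as alternatives. The method was tested on simulated data. Replicates carry only a number in the labels, so p-values measure the spread between these libraries, which may be technical. No 2 replicates agreed within sampling noise. MB468 2 h replicate 2, high in RN7SK, was kept.

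The members and companion lists were chosen with earlier results of these data known. By rule, library values were given for the called members at a mean of at least 1 CPM with the largest absolute log2 fold change (6 at 0 h, and 4 in each direction at 12 h in each line and in the 12 h difference), for COL17A1, the chains of the hemidesmosomal laminin, laminin α5β1γ1, collagen IV and integrins α6β4, α3β1, α2β1 and αV with β5, β6 and β8, and for the members with the 3 smallest p among those called at 0.5 or 2 h in each line. Other members named in the text, such as COL13A1, COL14A1, LAMA4 and LAMB2, fell outside this rule. They were not followed singly with spike-in totals or with the loss of each library. Companion genes, at most 4 per list, were those called at 0 h or 12 h with the largest absolute log2 fold change at 1 CPM or above. Of the members and companion genes, 2 are counted but not reported here by name. Gene bounds and exon lengths come from GENCODE v44, and start sites and promoter sequences from RefSeq (GRCh38).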

Additional observations from a re-analysis of the deposited data

Results flagged for a closer look

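A test of the difference itself found that these members responded differently at 0.5 h in the 2 lines (log2 change in MB468res-R8 minus that in MB468, edgeR's quasi-likelihood test). They were COL12A1 (0.42), LAMB3 (0.42), LAMC1 (0.19) and ITGA2 (-0.45). At 2 h the difference was -1.36 for LAMA2.

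At 12 h the response was higher in MB468res-R8 for COL5A1 (3.73), LAMB1 (1.25), COL8A1 (0.96), COL18A1 (0.95), ITGB4 (0.81), ITGA2 (0.50), ITGA6 (0.37), ITGB5 (0.33), LAMC1 (0.32) and ITGB6 (0.24). It was lower for LAMA2 (-2.63), ITGB2 (-1.21), ITGA5 (-0.995), COL4A6 (-0.93), COL5A2 (-0.92), COL12A1 (-0.79), COL16A1 (-0.66), COL4A1 (-0.63), LAMB3 (-0.47) and LAMA5 (-0.37). For LAMA5 the call was lost without any one of 9 libraries (adjusted p 0.0583 to 0.131), namely MB468 0 h replicates 2 and 3, MB468res-R8 0 h replicates 1 and 2, all 3 of MB468 12 h and MB468res-R8 12 h replicates 2 and 3. For COL5A2 it was lost without MB468res-R8 0 h replicate 1 (adjusted p = 0.0507).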

How the results depend on the processing

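Of 140 results for named members, 137 kept their direction and their side of the threshold with DESeq2 size factors, 137 with the DESeq2 Wald test, 137 with no filter on low counts, and all 140 with the replicate number as a block, which left the counts of members called as given except for 6 at 2 h in MB468 and 32 at 12 h in MB468res-R8. Replicate numbers were not taken to pair libraries, because in none of the 7 comparisons did all 3 same-numbered pairs correlate above 0.1 in their deviations from the group means (single pairs -0.387 to 0.466). The comparison of MB468res-R8 at 2 h with 0 h had the highest mean correlation, 0.277, with 2 pairs above 0.1, so pairing is not excluded there. With spike-in totals 104 of the 140 kept both, 20 lost their call and 13 reversed. Members called then numbered 29 at 2 h in MB468, 7 at 0.5 h and 0 at 2 h in MB468res-R8, and 1 in the 0.5 h difference. The values that reversed were, at 0 h, COL12A1 (-0.14), COL7A1 (-0.13), ITGB1 (-0.11) and ITGAV (-0.016). At 2 h in MB468 they were LAMB3 (-0.099) and ITGA6 (-0.18), at 12 h in MB468 COL4A6 (-0.019), LAMA3 (-0.083) and LAMA5 (-0.22), at 12 h in MB468res-R8 ITGA2 (0.0020), and in the 12 h difference COL4A2 (0.22), ITGA2B (0.20) and ITGB8 (0.21). LAMA5 at 12 h in MB468 was -0.0017 with DESeq2 size factors and -0.0026 with the Wald test. At an adjusted p under 0.01, 4 members were called at 2 h in MB468, 2 at 2 h in MB468res-R8, 3 in the 0.5 h difference and 1 in the 2 h difference. The 2 h difference also had 1 with at least 10 counts in every library, 1 with only the groups of the comparison and 1 with the Wald test. The cause of these changes was not tested.

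With each library left out in turn, members called ranged from 4 to 8 at 2 h in MB468, from 1 to 4 at 2 h in MB468res-R8, from 3 to 5 in the 0.5 h difference and from 1 to 2 in the 2 h difference. Uncalled values that crossed 0 were LAMC1 (-0.042 to 0.0045) and COL16A1 (-0.092 to 0.084) at 0 h, LAMA5 at 12 h in MB468 (-0.038 to 0.061), COL5A2 (-0.24 to 0.045) and ITGA2 (-0.072 to 0.043) at 12 h in MB468res-R8, and, in the 12 h difference, COL9A3 (-0.70 to 0.51), COL4A2 (-0.12 to 0.12), ITGA2B (-0.20 to 0.10), ITGB8 (-0.10 to 0.057) and ITGA3 (-0.0018 to 0.10). Depth limits the members under 1 CPM and COL5A1 in MB468res-R8, whose fold changes rest on few counts.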
